A study of Xenopus tropicalis with 16 samples.

Results

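Chaperones are the proteins that help other proteins to fold, keep them from clumping and hand them on for assembly, transport or degradation. In the cytosol, HSP70 binds short stretches of unfolded chains, J-domain proteins (the DNAJ families) bring it its clients, BAG proteins and other cofactors release them, and HSP90 acts later on partly folded clients. Prefoldin passes unfolded actin and tubulin to the ring-shaped chaperonin CCT, and mitochondria hold their own HSP70 and their own chaperonin, built of HSP60 and its lid HSP10. Heat shock factors switch many of these genes on when unfolded proteins build up in the cytosol, and the inducible HSP70 genes are the classical readout of that response.

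The genes described here are the 92 rows, of 19921 measured, whose symbols begin with hsp, dnaj, cct and a digit, bag and a digit, stip1, ahsa, pfdn or hsf and a digit, or equal tcp1 or st13. The rule leaves out hspa5, hsp90b1, dnajb9, dnajb11 and dnajc3, which encode chaperones of the endoplasmic reticulum (ER). They were measured in livers of female Xenopus tropicalis (tropical clawed frog), with 4 libraries in each of 4 groups: not exposed, exposed to benzo[a]pyrene, exposed to triclosan, and exposed to a mixture. Benzo[a]pyrene, a polycyclic aromatic hydrocarbon formed in combustion, activates the aryl hydrocarbon receptor, and triclosan is an antibacterial additive. The series title calls the exposure chronic. The labels used here state no strain, age, dose or exposure time, and not what the mixture held. Each library was made from 15 mg of liver, with messenger RNA selected and strand kept, and the samples are called biological replicates. The question put to these genes is whether any exposure shifted the folding machinery outside the ER.

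Values are FPKM, fragments scaled to transcript length and library size, divided by 1 factor per library that aligns the libraries. FPKM are per length, which allows genes to be set side by side as far as the gene models hold; the lengths behind them were not checked. Changes are differences in log2(rescaled FPKM + 1) from limma, given with their standard error (SE). The +1 shrinks the change of genes near or under an FPKM of 1. A gene was tested if it reached an FPKM of 1 in at least 4 of the 16 libraries, and called if its adjusted p was under 0.05.

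Depth, read from the confidence intervals in the files, was 10.9 to 17.9 M (mega) fragments a library. It is a lower bound, since genes without a usable estimate are left out. Among these are albumin in every library and the haemoglobin gene hba1 in the benzo[a]pyrene libraries. The library mixture 4 stood apart, with 10.59% of its summed FPKM from ribosomal RNA rows against 0.59 to 3.45% in the other 15. Only a few short ribosomal RNA symbols were counted, and missing estimates are not in the sum. The figure is therefore not a library's whole share of ribosomal RNA. Mixture 4 and benzo[a]pyrene 4 were also least like the others by median rank correlation, at 0.825 and 0.828, against 0.856 to 0.89 elsewhere. Results are therefore also given without these 2 libraries. Hepatocyte markers summed to between 5620 and 16300 FPKM in every library, which matches the labelled tissue. The sum leaves out albumin (alb), which had no usable estimate in any library. Ovary markers summed to at most 1.36 FPKM.

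Not all 92 genes fit the description of cytosolic and mitochondrial chaperones. Of these, 7 were classed here as encoding proteins of the ER that the exclusion did not name, namely dnajb12, dnajb14, dnajc1, dnajc10, dnajc16, dnajc18 and hspa13. This class may not be complete, since other members, such as dnajc14, may also belong to the ER. Another 4 match by name alone: hspg2 encodes perlecan, a matrix proteoglycan; hspb11 encodes a protein of cilia transport; and hsf2bp and hspbap1 are named for what they bind. These 11 genes are kept in the counts. Together the 7 ER members made up 3.36% of the summed FPKM of the 92, and 3 of them were tested. The 4 name matches made up 0.168%, and none was tested. The ER member dnajc18 is among the genes counted below for benzo[a]pyrene at an unadjusted p under 0.05 by limma and without overlap.

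No exposure moved a chaperone gene past the test. All 52 tested members missed the threshold in the comparisons of benzo[a]pyrene, triclosan and the mixture with unexposed livers, in the comparisons of the mixture with each single exposure, and in the test of any difference among the 4 groups. What the values do show is a hierarchy of levels that was similar in the 4 groups. The prefoldin gene pfdn4, HSP70's constitutive form hspa8 and the mitochondrial dnajc19 had the highest means over the 16 libraries, while the inducible HSP70 genes hspa1a and hspa1b had group means of at most 2.24 FPKM. Benzo[a]pyrene livers had the lowest means of the mitochondrial chaperonin genes hspe1 and hspd1, the CCT subunit cct4 and the J-protein genes dnajc4 and dnajc18, at log2 differences of -1.01 to -0.49 from unexposed that did not pass the test.

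Levels covered a wide range. Of the 92 genes, 23 had a mean of at least 10 FPKM over the 16 libraries, 28 had a mean between 1 and 10, and 41 had a mean under 1. The 12 most abundant genes carried 73.4% of the summed FPKM of all 92. The sum itself ranged from 822 to 1190 FPKM over the 16 libraries. By group it averaged 1030 ± 97.3 (SD, n = 4) in unexposed, 942 ± 86.3 with benzo[a]pyrene, 1030 ± 108 with triclosan and 982 ± 57.8 with the mixture, so the group means differed by about 1 SD or less. The 40 untested members stayed low: 32 of them never exceeded an FPKM of 1 and none exceeded 2.26. Only hspb8 and dnajc5b were listed at 0 in all 16 libraries.

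**Figure D1:**
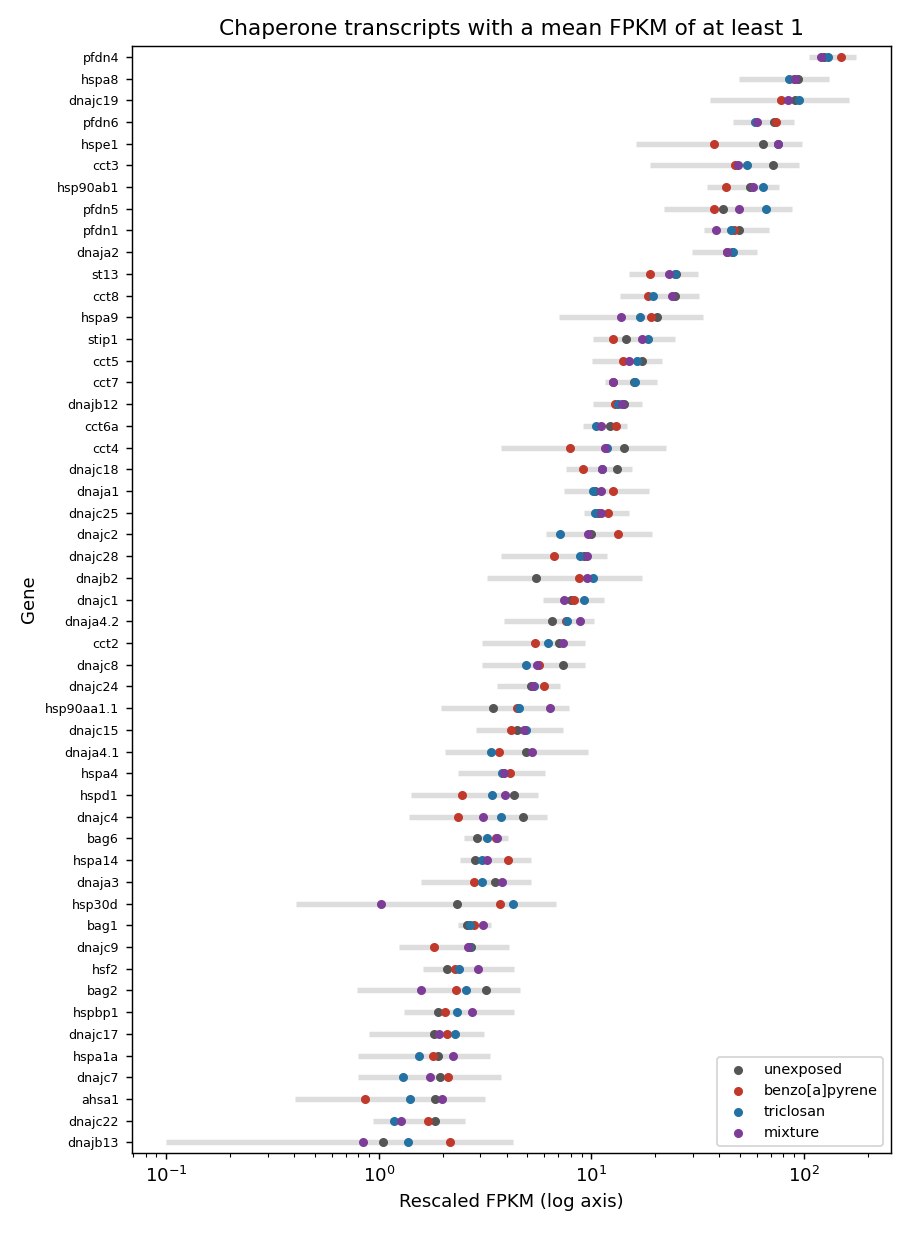
Mean rescaled FPKM (log axis) of the chaperone genes with a mean of at least 1, ordered by level, with 1 point per group and a grey bar from the lowest to the highest of the 16 libraries. The 4 group means of a gene mostly lie close together, while the genes span from about 1 FPKM to 131 FPKM for pfdn4.

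The order of the most abundant genes was only partly fixed. Prefoldin subunit 4 (pfdn4, mean 131 FPKM) exceeded hspa8 (89.9 FPKM) in all 16 libraries, and dnaja2 (44.8 FPKM) exceeded st13 (23 FPKM) in all 16. Between these, the neighbours hspa8, dnajc19, pfdn6, hspe1, cct3, hsp90ab1, pfdn5, pfdn1 and dnaja2 kept their order in 8 to 10 of the 16 libraries, and each gap was smaller than the SD of the higher gene. These neighbours do not differ beyond their spread. The order is one of FPKM, not of fragments: pfdn4 rests on an implied 227 to 552 fragments per library, hspa8 on 1980 to 6690 and cct3 on 81.9 to 640.

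The HSP70 group holds 11 members, of which hspa8, hspa4, hspa14 and hspa1a were tested. The constitutive hspa8 (ENSXETG00000013038, scaffold GL172934.1, bases 585719 to 590541), which folds new chains and uncoats clathrin vesicles, supplied most of the group. hspa8 read 127, 65.6, 94.2 and 87.1 FPKM in unexposed replicates 1 to 4, 99.6, 132, 67.7 and 60.4 in benzo[a]pyrene, 49.7, 80.5, 118 and 91.9 in triclosan, and 95.3, 76.3, 92.5 and 100 in mixture. The 4 groups overlapped throughout; the highest value was in benzo[a]pyrene 2 and the lowest in triclosan 1. The difference from unexposed was -0.09 ± 0.30 (SE) for benzo[a]pyrene, with a 95% interval from -0.71 to 0.54. It was -0.16 ± 0.30 for triclosan (interval -0.79 to 0.47) and -0.01 ± 0.30 for the mixture (interval -0.63 to 0.62). The intervals reach well to both sides of 0, so the data do not show that hspa8 was equal among the groups. The deposited estimates themselves were tight, with a 95% half-width of 2.45 to 4.49% per library, so the spread lay between livers or libraries.

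The stress-inducible HSP70 genes were low everywhere. hspa1a had a mean of 1.91 ± 0.849 FPKM (SD, n = 4) in unexposed, 1.80 ± 0.627 with benzo[a]pyrene, 1.54 ± 0.571 with triclosan and 2.24 ± 0.733 with the mixture. hspa1b stayed between 0.0954 and 1.95 FPKM, and the rows hspa1l and hsp70 never passed 0.609 and 0.352 FPKM. HSP70 genes are close copies of each other, and how the authors' counting divided shared reads is not given, so the split between hspa1a, hspa1b, hspa1l and hsp70 is uncertain. hsph1, an HSP110-type exchange factor, was at most 0.693 FPKM. hspa4, of the same exchange factor family, had a mean near 4 FPKM in every group, from 3.82 in triclosan to 4.14 in benzo[a]pyrene. hspa14, a ribosome-associated HSP70, averaged 2.85 ± 0.486 FPKM in unexposed and 4.05 ± 1.01 in the benzo[a]pyrene livers, a difference of 0.38 ± 0.16 that did not pass (limma adjusted p = 0.317). hspa2, hspa12a and hspa12b never exceeded 0.152 FPKM.

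The heat shock factors themselves were also at low levels. hsf2 was the most abundant, at 2.09 ± 0.313 FPKM in unexposed and 2.94 ± 0.956 in mixture livers, and hsf3 was tested at means of 0.656 to 0.96. hsf1, the main activator of the heat shock response, lay between 0.103 and 0.432 FPKM, on an implied 3 to 13 fragments per library, and was not tested. hsf4 and hsf2.2 were lower still; hsf2.2 and hsf2 lie 11518 bases apart on scaffold GL172910.1. Among members known as targets of hsf1, dnajb1 lay between 0.273 and 1.11 FPKM, and bag3 never exceeded 0.0494. The small heat shock genes hspb1, hspb2, hspb3 and hspb6 had means under 1 FPKM and were each listed at 0 in 4 or more libraries. The values of bag3 and of these 4 genes rest on an implied 0 to 18 fragments per library, whereas those of dnajb1 rest on 76.2 to 476. The median for dnajb1, 218, was above the 89.5 of hspa1a, whose FPKM was higher. How low dnajb1 stood thus depends on transcript lengths that were not checked. Neither dnajb1, bag3 nor these 4 small heat shock genes reached the level needed for a test. Other targets were higher: hspe1 and stip1 had means of 63.3 and 15.8 FPKM, and ubc, outside the name rule, 76.4 FPKM.

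One small heat shock gene was tested. hsp30d encodes an HSP30, a small heat shock protein of frogs, and lies at bases 719 to 1525 of scaffold GL175354.1. hsp30d read 0.758, 1.66, 1.37 and 5.54 FPKM in unexposed replicates 1 to 4, 5.24, 4.17, 0.41 and 5.14 in benzo[a]pyrene, 4.18, 6.79, 2.36 and 3.88 in triclosan, and 0.587, 1.54, 1.51 and 0.508 in mixture. The mixture values all lay below the triclosan values, and the unexposed and benzo[a]pyrene groups each held 1 value far from the other 3. The difference between mixture and triclosan was -1.36 ± 0.47 (limma adjusted p = 0.998), and that between mixture and benzo[a]pyrene was -1.05 ± 0.47 (adjusted p = 0.358). Its estimates had 95% half-widths of 34.2 to 142% and rest on an implied 1.99 to 34.2 fragments per library, which makes it the least precise of the genes described in full. Between mixture and triclosan, 1 of 52 members did not overlap, against 1.37% of all tested genes in that direction and 2.53% in either.

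The HSP90 group holds 4 members, all tested: the constitutive hsp90ab1, the inducible hsp90aa1.1, stip1, which bridges HSP70 and HSP90, and ahsa1, which activates the HSP90 ATPase. hsp90ab1 was the main HSP90 transcript and exceeded hsp90aa1.1 by 6.6-fold to 34.6-fold within a library. hsp90ab1 read 66.4, 39.7, 73.5 and 43.4 FPKM in unexposed replicates 1 to 4, 34.9, 38.7, 56.3 and 42.3 in benzo[a]pyrene, 55.4, 73, 75.4 and 53.8 in triclosan, and 76.7, 50, 50.8 and 52.1 in mixture. All groups overlapped with unexposed, and the lowest values were in benzo[a]pyrene livers. The difference from unexposed was -0.34 ± 0.24 for benzo[a]pyrene, 0.24 ± 0.24 for triclosan and 0.07 ± 0.24 for the mixture, with adjusted p values of 0.515, 0.986 and 0.959. The last one turned to -0.14 when the libraries were not rescaled. These values moved when 1 library was left out: the benzo[a]pyrene difference was -0.19 without unexposed 3, and the triclosan difference was 0.09 without unexposed 2, 0.13 without unexposed 4, 0.15 without triclosan 3 and 0.38 without unexposed 3. For the mixture, leaving out 1 library gave -0.08 to 0.21.

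hsp90aa1.1 read 4.53, 1.97, 2.12 and 5.14 FPKM in unexposed replicates 1 to 4, 3.34, 4.73, 5.19 and 4.62 in benzo[a]pyrene, 3.58, 5.17, 4.34 and 5.1 in triclosan, and 6.56, 3.4, 7.7 and 7.88 in mixture. Mixture replicates 1, 3 and 4 lay above every other library, while replicate 2 fell among the unexposed values. The difference between mixture and unexposed was 0.76 ± 0.27, with a 95% interval from 0.19 to 1.32, an unadjusted p of 0.0125 and a limma adjusted p of 0.731. It was 0.66 without mixture 4 and benzo[a]pyrene 4.

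ahsa1 read 1.16, 0.799, 3.17 and 2.28 FPKM in unexposed replicates 1 to 4, 1.13, 0.751, 1.18 and 0.405 in benzo[a]pyrene, 0.823, 1.99, 1.48 and 1.3 in triclosan, and 2.41, 1.65, 2.37 and 1.48 in mixture. Every mixture value lay above every benzo[a]pyrene value, while unexposed livers spanned both. The mixture exceeded benzo[a]pyrene by 0.68 ± 0.25 (limma adjusted p = 0.263), and benzo[a]pyrene differed from unexposed by -0.55 ± 0.25 (adjusted p = 0.322). The latter was -0.34 without unexposed 3, the highest library. stip1 averaged 14.6 ± 3.5 FPKM in unexposed, 12.7 ± 2.71 with benzo[a]pyrene, 18.5 ± 4.57 with triclosan and 17.4 ± 2.14 with the mixture. All 4 genes of the group had higher means on the log2 scale in mixture than in unexposed livers (median 0.20) and than in benzo[a]pyrene livers (median 0.42), where 52.2% and 53% of all tested genes were below 0, and none was called. Without rescaling, hsp90ab1 was below 0 in the first of these comparisons.

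Among the HSP70 cofactors, st13, which encodes the HSP70-interacting protein Hip, was the most abundant at 25 ± 5.18 FPKM in unexposed, 18.9 ± 2.67 with benzo[a]pyrene, 24.9 ± 5.28 with triclosan and 23.2 ± 6.82 with the mixture. bag1 and bag6, which link chaperones to protein degradation, were the steadiest of the 52 tested members. Their within-group SDs on the log2 scale were 0.11 and 0.13, and only 0.477% and 1.20% of all tested genes varied less. The +1 lowers such SDs at these levels. Over the 16 libraries the SD was 13.4% of the mean for bag6 and 13.8% for dnajc25, whose mean was 11.1 FPKM. For dnajc25, 7.18% of tested genes varied less on the log2 scale. bag1 ranged from 2.35 to 3.36 FPKM over the 16 libraries. bag2, an inhibitor of the ubiquitin ligase CHIP, averaged 3.21 ± 1.08 FPKM in unexposed and 1.58 ± 0.867 in mixture livers. That difference was -0.73 ± 0.33 and did not pass (limma adjusted p = 0.756). hspbp1, an HSP70 exchange factor, had means of 1.90 to 2.76. bag3, bag4 and bag5 were not tested, and their highest values were 0.0494, 0.804 and 1.1 FPKM.

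The J-proteins of the A and B families were led by dnaja2, at 43.4 to 46.3 FPKM in the 4 group means, and by dnaja1, at 10.2 to 12.7. Both are general cytosolic partners of HSP70. dnajb2, known for neuronal roles in mammals, averaged 5.52 ± 2.42 FPKM in unexposed livers, against 8.74 ± 3.18 with benzo[a]pyrene, 10.2 ± 5.98 with triclosan and 9.56 ± 5.34 with the mixture. Its spread within groups was among the widest, with 87.0% of tested genes varying less. dnaja4.1 and dnaja4.2 carry related symbols but lie on separate scaffolds, and whether reads are shared between them is not known. Their means were 3.37 to 5.27 and 6.52 to 8.82 FPKM. dnajb13, a J-protein of motile cilia, averaged 2.17 ± 1.43 FPKM in benzo[a]pyrene and 0.840 ± 0.762 in mixture livers, a difference of -0.77 ± 0.35 with an adjusted p of 0.367, and of -0.50 without benzo[a]pyrene 4. dnajb1, dnajb4, dnajb5 and dnajb6 were not tested, and dnajb6 reached the highest value of these at 1.99 FPKM in benzo[a]pyrene 1.

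The C family is the most mixed group, with 17 members of which 10 were tested. dnajc25 and dnajc2, the latter a ribosome-associated J-protein, had the highest means. dnajc2 read 6.53, 6.19, 9.5 and 17.7 FPKM in unexposed replicates 1 to 4 and 7.17, 10.3, 16.3 and 19.4 in benzo[a]pyrene, so both groups spanned nearly the same range. dnajc8, a J-protein linked to splicing, averaged 7.34 ± 1.69 FPKM in unexposed and 4.91 ± 2.07 in triclosan livers. Its difference of -0.54 ± 0.25 had the smallest unadjusted p of any member in the triclosan comparison, 0.052. Other tested members were dnajc28, dnajc24, dnajc9, dnajc17, dnajc7 and dnajc22, with group means between 1.18 and 9.54 FPKM. dnajc5b, dnajc5g, dnajc6, dnajc13, dnajc14, dnajc21 and dnajc27 were not tested and stayed at or below 0.76 FPKM.

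dnajc4 had the smallest p of all members. It lies at bases 298542 to 305502 of scaffold GL173221.1, 75250 bases from stip1. dnajc4 read 4.06, 6.19, 3.91 and 4.86 FPKM in unexposed replicates 1 to 4, 2.78, 2.95, 2.28 and 1.39 in benzo[a]pyrene, 3.11, 3.16, 5.31 and 3.49 in triclosan, and 4.12, 2.05, 2.86 and 3.36 in mixture. All 4 benzo[a]pyrene values lay below all 4 unexposed values, and the mixture overlapped with unexposed through replicate 1 alone. The difference between benzo[a]pyrene and unexposed was -0.79 ± 0.21, with a 95% interval from -1.24 to -0.34 and an unadjusted p of 0.0020. Adjusted over the 6918 genes tested by limma, p was 0.140. The value was -0.65 without mixture 4 and benzo[a]pyrene 4. Its estimates rest on an implied 14.7 to 57.3 fragments per library, with half-widths of 26.4 to 52.1%.

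Among the ER members that the rule kept, dnajb12, dnajc18 and dnajc1 were tested. dnajc18 read 11.5, 12.7, 15.6 and 13.2 FPKM in unexposed replicates 1 to 4, 7.64, 8.63, 11 and 9.26 in benzo[a]pyrene, 12.6, 9.59, 11.4 and 11.1 in triclosan, and 15.3, 9.51, 10.3 and 9.78 in mixture. The benzo[a]pyrene values lay below the unexposed ones without overlap, and triclosan and mixture livers each overlapped with both. The difference was -0.49 ± 0.18 for benzo[a]pyrene (limma adjusted p = 0.247), and -0.51 without the 2 libraries that stood apart. dnajb12 had means of 13.0 to 14.2 FPKM, and dnajc1 of 7.45 to 9.26. dnajb14, dnajc10, dnajc16 and hspa13 never exceeded 0.741 FPKM.

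Classed here as mitochondrial are dnajc19 and dnajc15, J-proteins of the inner membrane import motor, hspa9 (mitochondrial HSP70) and dnaja3, its J-protein. So are hspd1 (HSP60), hspe1 (HSP10), dnajc11 and dnajc30. This class may not be complete either, since other J-proteins may also belong to mitochondria, and the counts below depend on it. The first 6 named were tested, and all 6 had log2 means in benzo[a]pyrene livers below those of unexposed livers, from -1.01 to -0.08 with a median of -0.28. Over all tested genes 49.6% were below 0 in that comparison, 50.1% for triclosan and 52.2% for the mixture. The same 6 genes split evenly for triclosan, with 3 above and 3 below 0, and for the mixture, with 3 above and 3 below.

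hspe1 and hspd1 encode the lid and the barrel of the mitochondrial chaperonin and lie 514 bases apart on scaffold GL172638.1, hspd1 at bases 894168 to 922578 and hspe1 at 923093 to 929868. hspe1 read 52.8, 60.3, 86 and 58 FPKM in unexposed replicates 1 to 4, 77, 39.5, 16.3 and 17.9 in benzo[a]pyrene, 86.1, 89.8, 92.3 and 34.7 in triclosan, and 77.7, 61.7, 63.6 and 98.4 in mixture. Benzo[a]pyrene replicates 3 and 4 were the lowest of all 16 libraries, whereas replicate 1 lay within the unexposed range. hspd1 read 2.86, 4.12, 5.29 and 5.08 FPKM in unexposed replicates 1 to 4, 4.03, 2.81, 1.42 and 1.59 in benzo[a]pyrene, 2.75, 3.38, 4.79 and 2.68 in triclosan, and 5.63, 4.08, 3.46 and 2.58 in mixture. The same benzo[a]pyrene replicates 3 and 4 were the lowest for hspd1.

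The difference between benzo[a]pyrene and unexposed was -1.01 ± 0.43 for hspe1 (95% interval -1.91 to -0.10, limma adjusted p = 0.302) and -0.66 ± 0.26 for hspd1 (interval -1.22 to -0.11, adjusted p = 0.275). Without mixture 4 and benzo[a]pyrene 4 the values were -0.76 and -0.56. Leaving out benzo[a]pyrene 3 gave -0.71 for hspe1, and leaving out benzo[a]pyrene 1 gave -1.43. Against benzo[a]pyrene, the mixture had 1.23 ± 0.43 more hspe1 on the log2 scale (adjusted p = 0.256). By FPKM, hspe1 exceeded hspd1 by 11.3-fold to 38.1-fold in each library, a wide and variable ratio. The median implied fragments of these adjoining genes were closer, at 1060 for hspe1 and 434 for hspd1. The size of the FPKM ratio depends on transcript lengths that were not checked.

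hspa9 read 17.2, 33.6, 19.9 and 11 FPKM in unexposed replicates 1 to 4, 28.8, 20.9, 7.05 and 19.7 in benzo[a]pyrene, 20, 14.3, 20.2 and 12.9 in triclosan, and 14.7, 16.5, 14.2 and 9.84 in mixture. Benzo[a]pyrene 3 was again the lowest library, but replicate 4 was not low for this gene. dnajc19 varied more within groups than 91.4% of tested genes, from 36.1 to 164 FPKM over the 16 libraries, with group means of 77.9 to 95. dnajc15 had means of 4.18 to 4.92, and dnaja3 of 2.81 to 3.80. dnajc11 and dnajc30 were not tested and stayed at or below 0.662 FPKM.

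**Figure D2:**
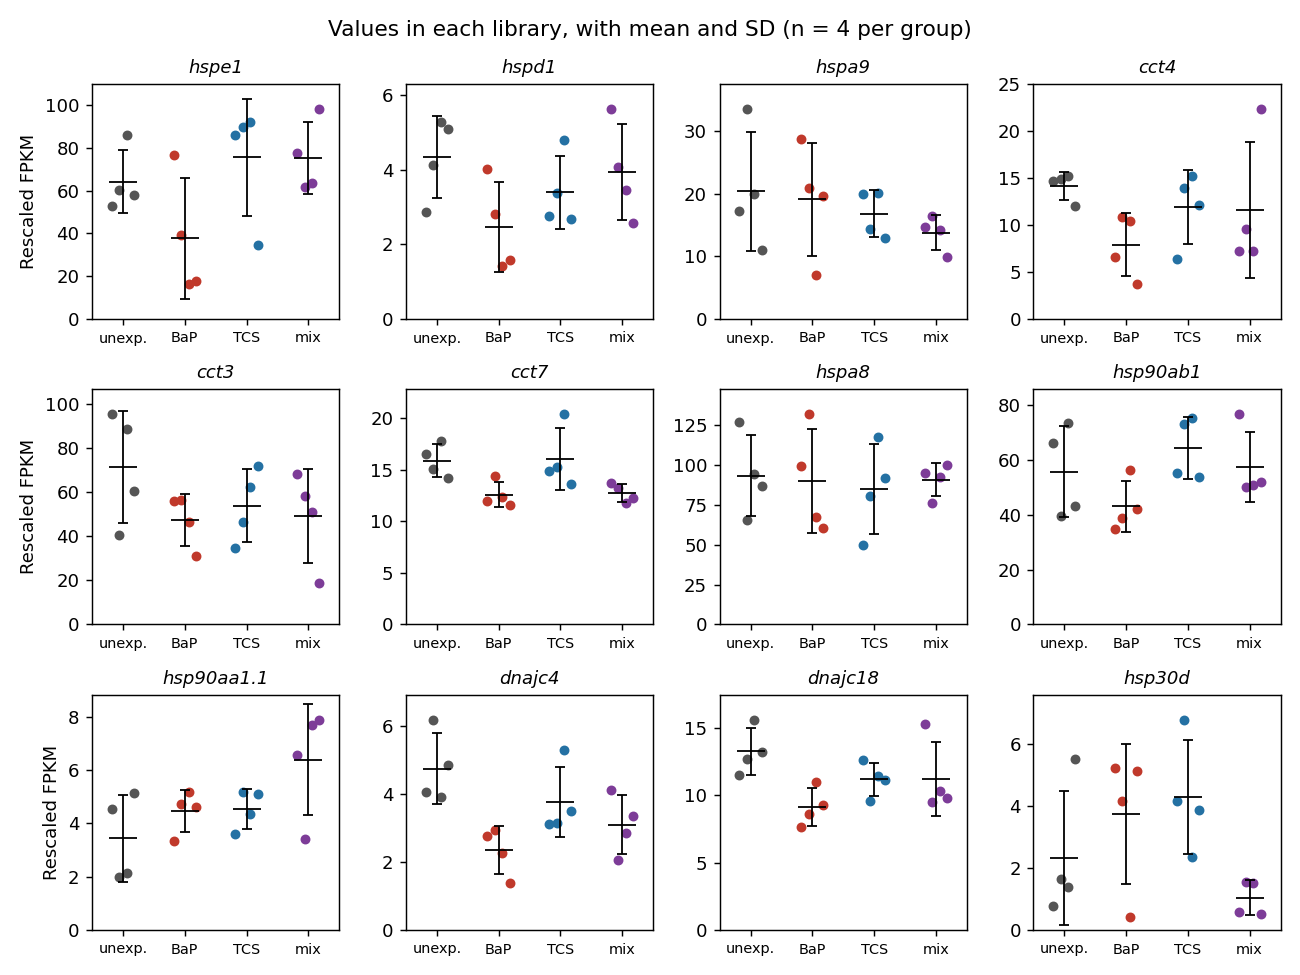
Rescaled FPKM of 12 chaperone genes in each library (points), with the mean and SD of each group (n = 4); unexp. is unexposed, BaP benzo[a]pyrene, TCS triclosan and mix the mixture. For cct4, dnajc4 and dnajc18 the benzo[a]pyrene points lie below all unexposed points, and for hspe1 and hspd1 the benzo[a]pyrene group spans from the unexposed range down to the lowest values of all, 16.3 and 1.42 FPKM.

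The cytosolic chaperonin CCT, which folds actin and tubulin, was represented by 7 subunit genes, all tested. No measured row carried the symbol tcp1, which names the gene of another subunit. cct3 (mean 55.4 FPKM) was the highest subunit in 15 of 16 libraries, the exception being mixture 4, where cct4 was higher. cct3 is measured on a row at bases 84 to 1676 of the scaffold GL188104.1. cct8 followed at 21.7 FPKM, then cct5 at 15.7, cct7 at 14.3, cct6a at 11.7 and cct4 at 11.4. cct2, at 6.52 FPKM, was the lowest in 13 of 16 libraries. The proteins of the ring are present in equal numbers, and the FPKM differed by 8.5-fold between the first and the last subunit. In implied fragments cct3 did not lead. Its median was 315, against 865 for cct5, 783 for cct7, 673 for cct8, 639 for cct6a, 614 for cct4 and 172 for cct2. The place of cct3 and the size of the gap depend on transcript lengths that were not checked.

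cct4 (ENSXETG00000002227, scaffold GL173131.1, bases 638013 to 647725) read 14.7, 14.9, 15.2 and 12 FPKM in unexposed replicates 1 to 4, 6.62, 10.9, 10.4 and 3.76 in benzo[a]pyrene, 6.37, 14, 15.2 and 12.1 in triclosan, and 7.24, 9.62, 7.28 and 22.4 in mixture. All benzo[a]pyrene values lay below all unexposed values, and the mixture values lay below them too except for mixture 4, the highest of the 16. The difference for benzo[a]pyrene was -0.85 ± 0.36 (95% interval -1.62 to -0.09, limma adjusted p = 0.302), and -0.59 without the 2 libraries that stood apart.

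cct7 read 16.5, 15.1, 17.8 and 14.2 FPKM in unexposed replicates 1 to 4, 12, 14.4, 12.4 and 11.6 in benzo[a]pyrene, 14.9, 15.3, 20.4 and 13.6 in triclosan, and 13.7, 13.2, 11.8 and 12.3 in mixture. The mixture values lay below the unexposed ones without overlap, and those of benzo[a]pyrene overlapped by 1 library. The difference was -0.30 ± 0.16 for the mixture (limma adjusted p = 0.766) and -0.31 ± 0.16 for benzo[a]pyrene (adjusted p = 0.357). Over the 7 subunits, 6 had log2 means below unexposed in each of the 3 exposures, with medians of -0.34 for benzo[a]pyrene, -0.22 for triclosan and -0.21 for the mixture. The 3 comparisons share the same 4 unexposed libraries, of which replicates 1 and 3 held the highest values for cct3, and none of the 7 was called in any of them.

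Prefoldin, which hands actin and tubulin to CCT, was the most abundant class by summed FPKM. Its 5 members summed to 288 ± 40.7 FPKM in unexposed, 310 ± 23.8 with benzo[a]pyrene, 300 ± 52.0 with triclosan and 269 ± 10.1 with the mixture. By FPKM, pfdn4 was the highest subunit in all 16 libraries, and pfdn6, pfdn5 and pfdn1 took the following places in varying order. pfdn2 was last in all 16 libraries, at a mean of 0.378 FPKM, although its protein is a core subunit of the same complex. Median implied fragments were 1110 for pfdn5, 426 for pfdn4, 390 for pfdn6, 371 for pfdn1 and 37.6 for pfdn2, a narrower gap. Transcript lengths were not checked, so the FPKM gap may not be one of transcript number. The remaining subunit gene, vbp1, is outside the name rule and had a mean of 3.22 FPKM.

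pfdn1 read 43.9, 65.3, 44.5 and 44.1 FPKM in unexposed replicates 1 to 4, 45.7, 47.1, 45.7 and 49.6 in benzo[a]pyrene, 43.7, 33.9, 68.7 and 34.9 in triclosan, and 35.5, 38.9, 40.5 and 39.9 in mixture. The mixture values lay below all unexposed and all benzo[a]pyrene values, by narrow margins. The difference between mixture and unexposed was -0.33 ± 0.22 and did not pass (limma adjusted p = 0.772), and it was -0.19 without unexposed 2. pfdn5 averaged 41.6 ± 16 FPKM in unexposed and 66.1 ± 22.8 in triclosan livers, with overlapping groups. pfdn6 averaged 72.1 ± 15.8 in unexposed and 60.1 ± 9.30 in mixture livers, and pfdn4 averaged 125 ± 19.9 and 121 ± 10.5.

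**Figure D3:**
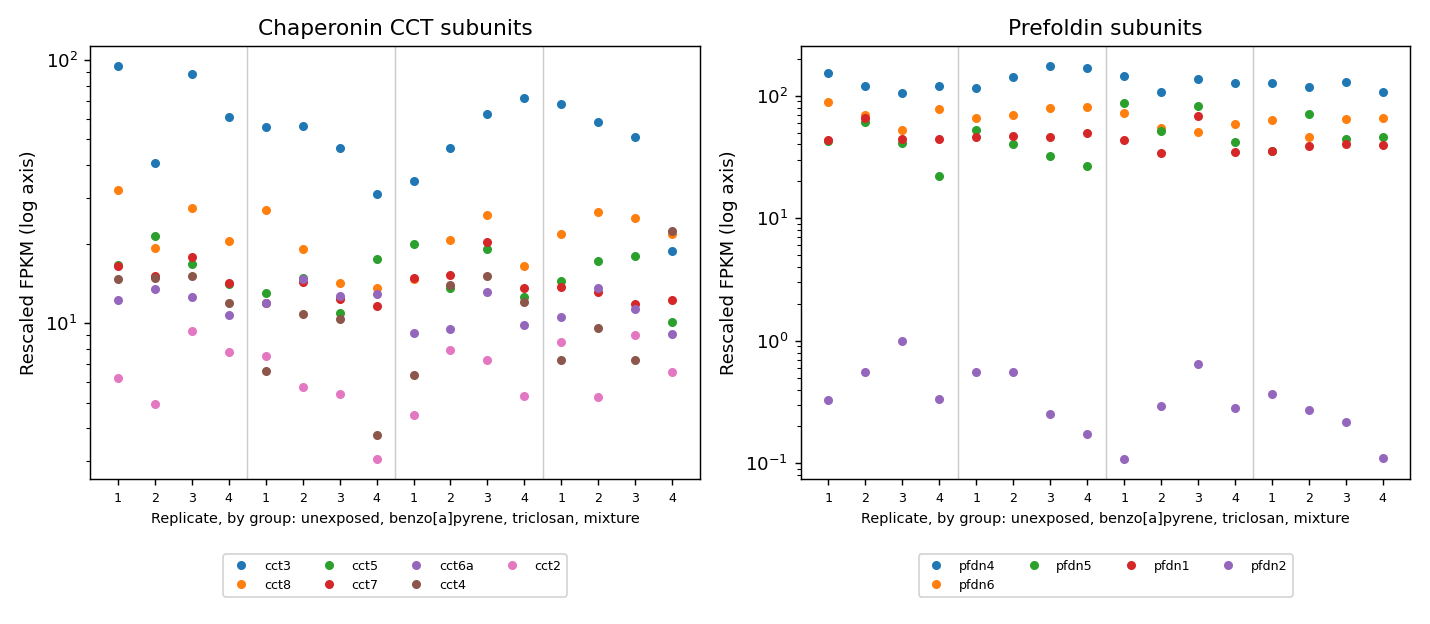
Rescaled FPKM (log axis) of the CCT and prefoldin subunit genes in each of the 16 libraries, 1 colour per gene, with replicates 1 to 4 of each group side by side. cct3 leads the chaperonin in all libraries but mixture 4, and pfdn2 lies far below the other prefoldin genes in every library.

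Counts over the tested members were read against the same counts over all tested genes. Between benzo[a]pyrene and unexposed livers, 0 of 52 members were called by limma, against 0.0289% of the 6918 genes tested. At an unadjusted p under 0.05 the count was 7 of 52 (13.5%), against 14.5% of all tested genes. Of these 7, hspa14 was higher, against a background of 8.47% higher, and hspe1, hspd1, cct4, dnajc4, dnajc18 and ahsa1 were lower (11.5%), against 6.06% lower. The groups did not overlap for 3 members, cct4, dnajc4 and dnajc18, all lower in benzo[a]pyrene (5.77%), against 2.79% of tested genes in that direction and 7.75% in either. The median log2 change was -0.08 over the members and 0 over all tested genes, and it was 0.02 over the members without the 2 libraries that stood apart.

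Between triclosan and unexposed livers, 0 of 52 members were called by limma, against 0% of all tested genes. No member reached an unadjusted p of 0.05, against 4.38%, and none had groups without overlap, against 2.79%. The median change was -0.02, against 0 over all genes, and the member with the largest change was hsp30d at 0.80.

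Between mixture and unexposed livers, 0 of 52 members were called by limma, against 0% of all tested genes. At an unadjusted p under 0.05 there were 3 members (5.77%), hsp90aa1.1 higher (background 3.35%) and dnajc4 and bag2 lower (background 3.21%), against 6.56%. Groups did not overlap for pfdn1 and cct7, both lower in the mixture (3.85%), against 2.01% of tested genes in that direction and 4.52% in either. dnajc4 differed by -0.50 ± 0.21 in this comparison (adjusted p = 0.731). The median change was 0.01, against -0.02 over all genes.

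Between the mixture and benzo[a]pyrene, 0 of 52 members were called by limma, against 0.0723% of all tested genes, and 4 members reached an unadjusted p under 0.05 (7.69%), against 13.1%. These were hspe1 and ahsa1, higher in the mixture against a background of 5.58%, and hsp30d and dnajb13, lower against 7.55%. Groups did not overlap for 3 members, against 5.55%: pfdn6 and pfdn1 were lower in the mixture (background 3.14%) and ahsa1 was higher (background 2.41%). Between the mixture and triclosan, 0 of 52 were called, against 0%, and hsp30d alone reached an unadjusted p under 0.05, against 1.84% of tested genes in its direction and 2.89% in either. The limma F test of any difference among the 4 groups called 0 of 52 members, against 0.0723%, and 2 members, hspe1 and dnajc4, had an unadjusted p under 0.05, against 10.7%. The mixture's comparisons with unexposed, benzo[a]pyrene and triclosan share the 4 mixture libraries and are not independent of each other.

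**Figure D4:**
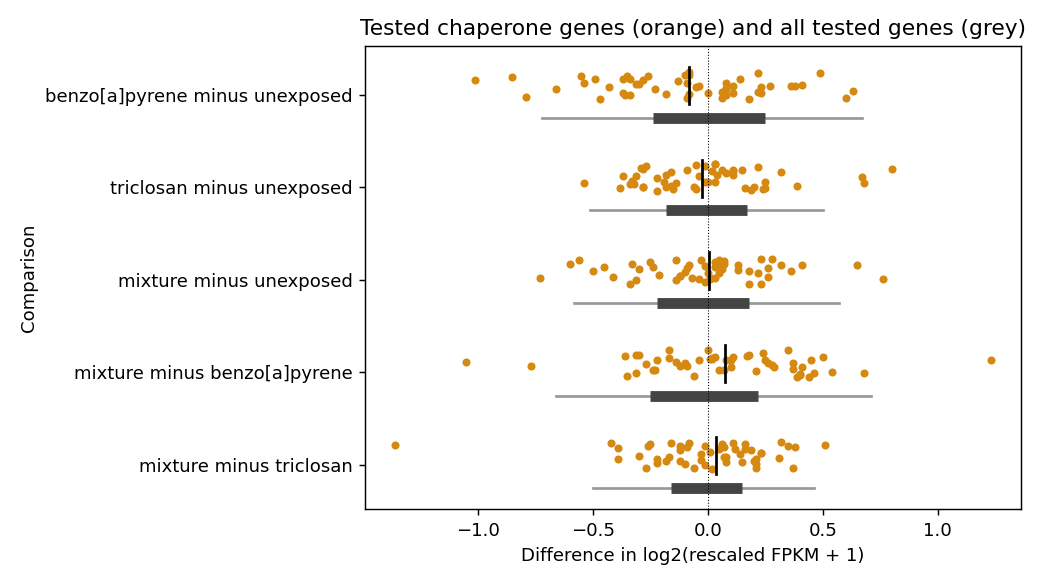
Differences in log2(rescaled FPKM + 1) of the 52 tested chaperone genes (orange points, with a black bar at their median) in 5 comparisons, above the spread of all 6918 tested genes (thick bar from the 25th to the 75th percentile, thin line from the 5th to the 95th percentile). The members' medians lie between -0.08 and 0.07, and most points lie within the spread of all genes.

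Precision was typical of this data set. The within-group SD on the log2 scale had a median of 0.33 over the members and 0.35 over all tested genes, and the median SE of a member's difference was 0.24. A difference of 1 on the log2 scale was reached by hspe1 in the comparison of benzo[a]pyrene with unexposed and of the mixture with benzo[a]pyrene, and by hsp30d against each single exposure.

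The makeup of the benzo[a]pyrene livers also differed in other transcripts. All 12 tested erythroid markers were above unexposed on the log2 scale, with a median of 0.94, and 15 of 16 tested hepatocyte markers were below, with a median of -0.46; none was called (smallest limma adjusted p 0.106 and 0.0793). Over the erythroid rows with estimates in every library, the summed level was 8640 to 27900 FPKM in benzo[a]pyrene livers and 4640 to 6490 in unexposed livers, without overlap. Of the 17 erythroid rows found, 1 was at 0 in all 16 libraries, a further copy of epb42. The haemoglobin genes hba1 and hbg1 had missing estimates, so this sum leaves out the most abundant erythroid transcripts. Where estimated, hba1 averaged 121000 FPKM and hbg1 56900. By group, hbg1 averaged 62400 FPKM (SD 35100) after benzo[a]pyrene against 46100 (SD 18300) without exposure, means closer together than either SD. hba1 had no mean for the benzo[a]pyrene group. Summed hepatocyte markers, without alb, were 5620 to 10000 FPKM in benzo[a]pyrene and 7520 to 16300 in unexposed livers. Benzo[a]pyrene 3 and 4, which had the lowest hspe1 and hspd1, had hepatocyte sums of 6910 and 5620, against 10000 for both benzo[a]pyrene 1 and 2. The ribosomal RNA rows counted above had shares of 2.11 and 3.45% in benzo[a]pyrene 3 and 4, against 0.84 and 0.78% in 1 and 2. Mixture 3 and 4 also had low hepatocyte sums, 6770 and 6650, with ribosomal RNA shares of 1.41 and 10.59%. Their hspe1 was 63.6 and 98.4 FPKM, the latter the highest of the 16 libraries, and their hspd1 was 3.46 and 2.58. The part of these marker and ribosomal RNA differences in the chaperone values was not tested. In whole liver, fewer cells of a type and less RNA per cell cannot be told apart.

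Other markers gave no calls either. In benzo[a]pyrene livers all 6 tested granulocyte markers were below unexposed (median -0.74), as were all 7 tested bile duct markers (median -0.64). Of the lymphocyte markers 3 of 4 were above (median 0.62), and of the macrophage markers 2 of 3 (median 0.14). Muscle markers had 2 of 3 below (median -0.45). Summed granulocyte markers ranged from 6.21 to 65.9 FPKM in benzo[a]pyrene and from 24.1 to 103 in unexposed livers, and bile duct markers from 205 to 424 and from 309 to 538. Macrophage markers ranged from 47.5 to 118 and from 47.3 to 124, lymphocyte markers from 3.76 to 9.17 and from 2.03 to 3.91, muscle markers from 2.79 to 20.9 and from 2.76 to 23, and pigment cell markers from 0.219 to 0.657 and from 0.302 to 0.94.

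In mixture livers, 12 of 16 tested hepatocyte markers were below unexposed (median -0.34), as were 6 of 7 bile duct markers (median -0.46), 3 of 3 macrophage markers (median -0.83) and 6 of 6 granulocyte markers (median -0.24). Erythroid markers split into 6 above and 6 below 0 (median -0.03). Summed macrophage markers were 32.7 to 59.8 FPKM in mixture livers, overlapping the unexposed range. In triclosan livers the medians were -0.07 for hepatocyte, 0.09 for erythroid and 0.41 for granulocyte markers. None of these markers was called by limma, and their part in the chaperone values was not tested.

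The ER chaperones, which the rule leaves out, spread more widely between libraries. Of 20 genes on a list of ER chaperones and their regulators, 16 were tested and none was called. Their median difference from unexposed was -0.88 for benzo[a]pyrene, with 15 of 16 below 0, -0.64 for triclosan, with 13 below 0, and -0.17 for the mixture, with 9 below 0. The median ER chaperone deviated from its mean over the 16 libraries by 1.21 and 1.11 on the log2 scale in unexposed 3 and 4 and by 1.16 in mixture 1, but by -0.19 and -0.56 in unexposed 1 and 2. In the same 16 libraries the median cytosolic or mitochondrial member deviated by -0.19 to 0.12. The rescaling aligns the libraries, which tends to hold a median over many unlike genes near 0. Single classes of members moved more. Their mean deviations spanned -0.70 to 0.44 for mitochondrial, -0.57 to 0.42 for HSP90, -0.49 to 0.38 for CCT and -0.22 to 0.30 for prefoldin members. No test of the difference between the ER list and the members was made.

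**Figure D5:**
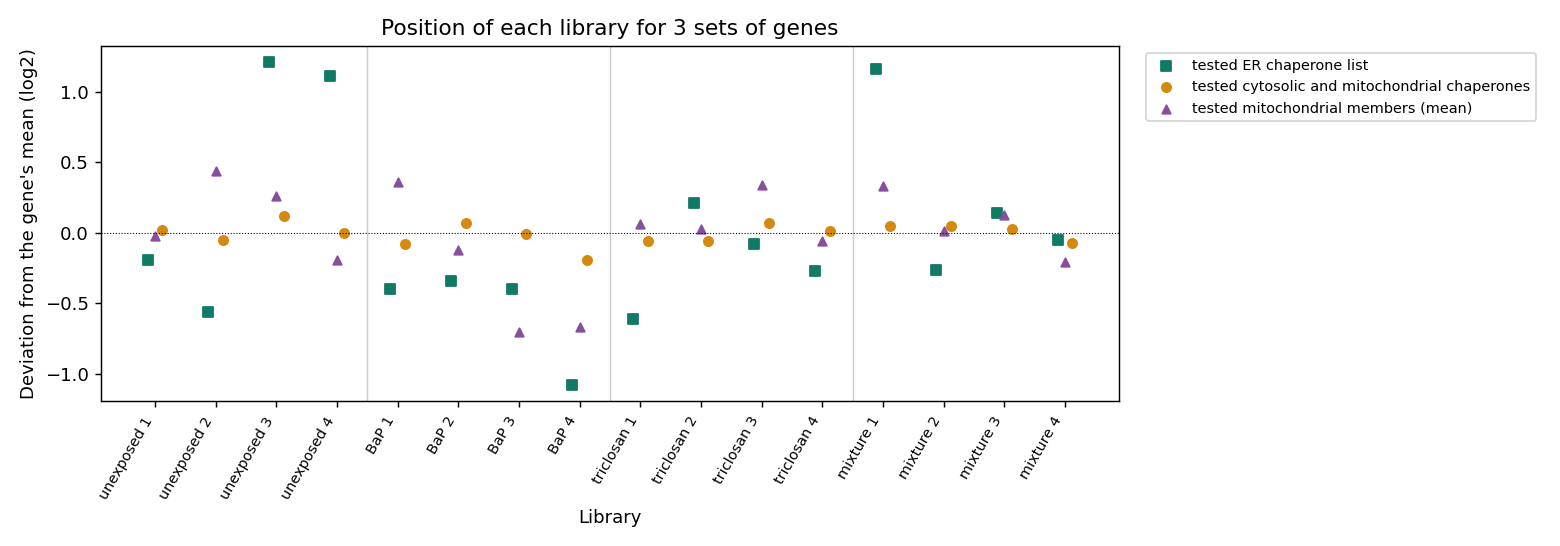
Position of each library on the log2 scale (deviation from each gene's mean over the 16 libraries): the median over the tested ER chaperone list (squares), the median over the 52 tested cytosolic and mitochondrial chaperones (circles) and the mean over the 6 tested mitochondrial members (triangles); BaP is benzo[a]pyrene. The circles stay between -0.19 and 0.12, the squares span from -1.08 to 1.21, and the triangles are lowest in benzo[a]pyrene 3 and 4, at -0.70 and -0.67.

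Related genes outside the name rule were not called either. Of the co-chaperones that carry other names, 18 were tested and none passed in any comparison; their medians against unexposed were -0.11, -0.09 and 0.01 for benzo[a]pyrene, triclosan and the mixture. cdc37, which brings kinases to HSP90, averaged 10 ± 1.05 FPKM in unexposed and 10.3 to 11.3 in the exposed groups. Of the tubulin-folding and prefoldin-like genes, 9 were tested, with medians of 0.08, 0.07 and -0.01 and no calls; tbce, a tubulin cofactor, averaged 4.68 ± 0.678 FPKM in unexposed and 9.03 ± 2.69 in mixture livers.

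Genes of mitochondrial import and protein degradation had 16 tested members, medians of 0.02, -0.06 and -0.15, and no calls. For the mixture 3 were above and 13 below 0 against unexposed, where 52.2% of all tested genes were below. The split against benzo[a]pyrene was also 3 above and 13 below, where 53% of all tested genes were below. For triclosan 7 were above and 9 below 0. For benzo[a]pyrene 8 were above and 8 below 0, with pitrm1 counted on separate rows, at -0.38 and 0.06. The tested members classed here as mitochondrial had 6 of 6 below 0. Of these, dnajc15 (-0.08 ± 0.23), hspa9 (-0.13 ± 0.37) and dnajc19 (-0.26 ± 0.48) lay within their SE of 0, while hspe1, hspd1 and dnaja3 did not. The difference between these counts was not tested. clpp, the protease of the mitochondrial matrix, averaged 12.2 ± 3.86 FPKM in unexposed and 11.2 ± 6.30 in the benzo[a]pyrene livers. Of the heat shock factor targets with other names, 9 were tested, with medians of -0.25, 0.09 and -0.20 and no calls; ubc, a polyubiquitin gene, averaged 62.5 ± 18.6 FPKM in unexposed and 97.8 ± 21.4 in triclosan livers.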

How the data were processed

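Messenger RNA of 16 female frog livers was read as 75 bp reads. The authors deposited 1 gene table per library with Cufflinks FPKM, a 95% confidence interval and a status, per the file headers. The submitters' processing notes list Cufflinks 0.0.7, TopHat, TopHat2 0.6, Bowtie 0.12.7 and Trimmomatic 0.32.1, with no role or order. No source used here gives the genome build or how strand and shared reads were treated. Loci are the deposited scaffold positions, written 1-based. All 92 member symbols matched a RefSeq table, which was used for names only. Read counts were not used here, so depth was read from the confidence intervals, which cover counting error only as the authors' software gives it.

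Groups came from the treatment labels and replicates from the titles, and no batch is given. The 54 estimates with a status other than OK were treated as missing; none belonged to a member. FPKM were divided by median-of-ratios factors over 3959 genes with at least 1 FPKM in all 16 libraries. Genes with at least 1 FPKM in at least 4 libraries and at least 3 values per group were tested, 6918 in all, 52 of them members. limma 3.58.1 in R 4.3.3 (trend and robust options, 1 mean per group over all 16 libraries, 12 residual degrees of freedom) was run on log2(FPKM + 1), two-sided, with Benjamini-Hochberg adjustment over the 6918 genes. The procedure was tested on simulated data. Intervals are limma's 95% intervals.

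Members, lists and markers were chosen with earlier results of these data known. Named genes were any called member, the 2 most abundant and the 2 with the smallest F test p in each role class, the 12 most abundant, all CCT and prefoldin genes, 15 well-known chaperone genes and hspg2, and members with a mean of at least 5 FPKM and no overlap with unexposed, with the most abundant genes of each related list. Other members are given to account for the whole set, and were picked after their values were seen. Lists covered other co-chaperones, tubulin and prefoldin-like folding, mitochondrial protein quality control, heat shock factor targets, ER chaperones, and erythroid, hepatocyte, ovary, muscle, macrophage, granulocyte, lymphocyte, bile duct and pigment cell markers. Alternatives were a pseudocount of 0.1, no rescaling, no filter, fits on 2 groups alone, no trend or robust option, the replicate block, and libraries left out.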

Additional observations from a re-analysis of the deposited data

Results flagged for a closer look

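The 48 named members were screened for a library far from the other 3 of its group, and 14 of 192 groups held one, where chance alone gives about 1 in 20. Values are rescaled FPKM, with the range of the other 3 libraries of the group. Among prefoldin and CCT genes, pfdn6 read 46.2 in mixture 2 (63.6 to 65.6), pfdn1 65.3 in unexposed 2 (43.9 to 44.5), cct6a 13.2 in triclosan 3 (9.21 to 9.89), cct4 12 in unexposed 4 (14.7 to 15.2) and cct4 22.4 in mixture 4 (7.24 to 9.62). The mitochondrial hspe1 read 34.7 in triclosan 4 (86.1 to 92.3).

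Mixture 1 held 4 of the high values: hsp90ab1 at 76.7 (50 to 52.1), dnajc18 at 15.3 (9.51 to 10.3), hspa1a at 3.33 (1.79 to 1.94) and hsph1 at 0.693 (0.229 to 0.286). The same library had an ER chaperone deviation of 1.16. dnaja1 read 12.8 in unexposed 1 (9.45 to 9.78) and dnajb13 1.98 in mixture 3 (0.368 to 0.533). Near the floor of the data, hspb1 read 1.81 in mixture 4 (0.0931 to 0.347) and hsf2bp 1.03 in triclosan 3 (0 to 0.065).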

How the results depend on the processing

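Under 23 alternative settings, the number of members called by limma was 0 in every comparison and F test, 137 results in all. Results under 1 setting share libraries and are not independent. The smallest limma adjusted p of a member over these results was 0.0891, for the mixture against benzo[a]pyrene without benzo[a]pyrene replicate 3. Over all genes, the calls for benzo[a]pyrene against unexposed went from 2 to 46 without that library, and for the mixture against benzo[a]pyrene from 5 to 27. They were 0 and 0 without mixture 4 and benzo[a]pyrene 4, and in the F test 0 against 5. With no rescaling, the members' median change was -0.15 for the mixture against unexposed, -0.06 against benzo[a]pyrene and -0.05 against triclosan. The median of all tested genes moved with it, to -0.16, -0.13 and -0.07. Without mixture 4 and benzo[a]pyrene 4, the benzo[a]pyrene median was 0.02, and leaving out 1 library at a time gave -0.14 to 0.03, the highest without benzo[a]pyrene 4. Of the 23 differences of single members, those for hspa8 and hsp90ab1 changed sign. hspa8 was 0.07 for benzo[a]pyrene without the 2 libraries, and leaving out 1 library gave -0.29 to 0.09 for benzo[a]pyrene, -0.34 to 0.07 for triclosan and -0.16 to 0.16 for the mixture. hsp90ab1 in the mixture against unexposed was -0.14 with no rescaling and -0.08 to 0.21 with 1 library left out. The cause was not tested. With the replicate block, 0 members were called in every comparison. Over 24 same-numbered pairs the correlation of deviations was -0.25 to 0.26, over 0.1 in 6, and in 4 the own number was best. These values show no clear pairing by number, and with 4 libraries per group they cannot exclude one.

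Doses and the makeup of the mixture are unknown here, the groups hold 4 libraries each, and a missed threshold does not show equal levels. Some members rest on few fragments, hsp30d on an implied 1.99 to 34.2 per library. The other 110 medians and 517 single values kept their side of the threshold and direction, or moved by less than the spread between libraries.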
